A study of Mus musculus with 2 samples.

Results

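Growth factor receptors of blood progenitors were described by the accessible chromatin regions around their genes, in 1 Brd9 knockout and 1 control library of mouse fetal liver cells. The 9 genes were Kit, Flt3, Csf1r, Csf2ra, Csf2rb, Csf3r, Il3ra, Il6st and Tek. ATAC-seq peaks of both libraries that shared at least 1 bp were merged into regions, and a region was a member when it overlapped one of these genes or lay within 60 kb of it, or within 200 kb upstream of Kit (mm10). The rule used position only, and it gave 44 of the 29076 regions of the series. The knockout library (replicate 2) came from CD45.2-positive cells of Vav1-iCre Brd9fl/fl embryos, and the control library (replicate 1) from CD45.2-positive cells of Brd9fl/fl embryos, both C57BL/6 at stage E14.5. Each used 150000 lineage-negative, c-Kit-positive cells sorted from fetal liver. Both groups carried the floxed Brd9 alleles, and the iCre recombinase, driven by Vav1 sequences in blood cells, was present in the knockout alone. Brd9 encodes a bromodomain protein of the non-canonical BAF complex, a remodeller of chromatin. The number of embryos behind each library is not stated in the sources used here. The sort selected cells by the protein that Kit encodes, so open chromatin at Kit was selected for and is no finding.

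Blood progenitors depend on secreted growth factors that bind a small set of surface receptors. Kit, Flt3, Csf1r and Tek are receptor tyrosine kinases, which phosphorylate themselves and their partners once ligand joins a pair of them: KIT binds stem cell factor, FLT3 binds FLT3 ligand, CSF1R binds CSF1 and IL34, and TEK (TIE2) binds angiopoietins. The others have no kinase of their own and signal through bound JAK kinases and STAT factors. CSF2RA and IL3RA are the ligand-binding chains for GM-CSF and IL-3, and both pair with the beta chain from Csf2rb. CSF3R binds G-CSF and marks the neutrophil lineage, and IL6ST (gp130) is the signalling chain shared by IL-6 and related cytokines.

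The deposited lists held 22348 knockout and 25330 control peaks, with medians of 28 and 37 summit reads, the number of extended reads over a peak's highest point. The knockout library had 0.64 times the depth of the control, taken from the lowest local background in each list. A scaled ratio is knockout over control summit reads divided by that value, with a 95% interval for counting error only. With 1 library per genotype no p-value was computed, and each difference is one between these 2 libraries. The region at one end of Brd9 had 151 summit reads in the knockout and 217 in the control, a scaled ratio of 1.09 (0.877 to 1.34). The sources used here do not place the floxed segment, so this value did not check the labels. The libraries also differed at Y-linked genes, with regions at Ddx3y (33 reads) and Uty (18 reads) in the knockout list alone. None of the 9 receptor genes is sex-linked in the mouse table used here.

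The sequences just before the gene starts are shown first, because whether a region was listed there went with their content of CpG dinucleotides. RefSeq promoter sequences (GRCm38.p6, the mm10 coordinates) were matched for 7 of the 9 genes, all but Csf1r and Csf2rb. Below are the 250 bases before the start of 5 of them, read 5' to 3' on the gene's strand, with CpG dinucleotides in capitals. Kit (chr5:75574737-75574986, plus strand), Il6st (chr13:112463820-112464069, plus strand) and Flt3 (chr5:147400490-147400739, minus strand) had a region shared by both lists over this window. Csf3r (chr4:126024409-126024658, plus strand) and Tek (chr4:94739039-94739288, plus strand) had none over it in either.
Kit: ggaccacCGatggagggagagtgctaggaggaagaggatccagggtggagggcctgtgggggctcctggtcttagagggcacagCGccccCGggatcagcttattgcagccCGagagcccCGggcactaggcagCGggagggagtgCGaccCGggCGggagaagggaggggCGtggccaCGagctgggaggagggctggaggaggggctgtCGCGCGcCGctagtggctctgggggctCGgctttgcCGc
Il6st: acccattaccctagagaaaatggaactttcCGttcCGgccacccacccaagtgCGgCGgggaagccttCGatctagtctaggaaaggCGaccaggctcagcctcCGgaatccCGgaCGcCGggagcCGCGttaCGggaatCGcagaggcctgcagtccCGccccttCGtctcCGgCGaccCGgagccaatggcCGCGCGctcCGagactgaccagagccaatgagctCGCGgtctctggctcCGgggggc
Flt3: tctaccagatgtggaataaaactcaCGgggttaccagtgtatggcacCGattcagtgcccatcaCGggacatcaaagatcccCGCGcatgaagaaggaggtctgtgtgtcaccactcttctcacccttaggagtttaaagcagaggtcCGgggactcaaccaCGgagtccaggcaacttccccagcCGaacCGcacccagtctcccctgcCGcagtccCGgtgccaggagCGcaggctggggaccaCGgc
Csf3r: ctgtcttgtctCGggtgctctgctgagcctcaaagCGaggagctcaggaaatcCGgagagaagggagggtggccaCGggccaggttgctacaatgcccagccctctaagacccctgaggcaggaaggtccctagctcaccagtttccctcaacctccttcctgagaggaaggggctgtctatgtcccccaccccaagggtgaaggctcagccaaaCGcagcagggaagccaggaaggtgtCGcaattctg
Tek: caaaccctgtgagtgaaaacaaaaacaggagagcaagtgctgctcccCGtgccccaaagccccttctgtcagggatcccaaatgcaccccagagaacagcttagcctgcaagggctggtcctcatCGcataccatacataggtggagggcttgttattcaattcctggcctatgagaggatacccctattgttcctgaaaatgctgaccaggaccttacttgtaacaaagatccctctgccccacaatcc

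The windows of Kit, Il6st and Flt3 held 17, 26 and 13 CpG dinucleotides, and that of Il3ra, also covered by a region in both lists, held 27. Csf3r and Tek, whose windows were not covered, had 6 and 2. Csf2ra was the exception, with 17 CpG dinucleotides and no region over the window itself, though a strong region began further inside the gene. The same relation held across the genome. Of 10362 promoter windows with at least 13 CpG dinucleotides 79.5% overlapped a region of either list, against 7.69% of 17640 windows with 6 or fewer, which is the order seen at the receptors other than Csf2ra. Motifs of 5 factor families were searched on both strands of these windows. The GATA motif GATAA, found in 22.6% of all 32851 windows, and the RUNX motif TGTGGT, found in 14.0%, were in none of the 7. The ETS motif GAGGAA, in 23.3% of all windows, was found at Kit and Csf3r, 1 match each, and at Csf2ra, with 2 matches that follow each other directly. The C/EBP motif TTGCNNAA (9.56% of all windows) was found at Il3ra, and the E-box CAGNTG (44.8%) at Flt3 and Csf2ra. A match describes letters in the window and not binding.

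Most regions around the receptor genes were open in both libraries. Of the 44 regions, 28 were in both lists, 5 in the knockout list alone and 11 in the control list alone. These are 63.6% (47.8 to 77.6), 11.4% (exact Clopper-Pearson interval 3.79 to 24.6) and 25.0% (13.2 to 40.3), and over all regions of the series the shares were 63.6%, 13% and 23.4%. The receptor loci thus had about the background share of regions in 1 list. Both lists were also limited to the same, smaller number of strongest peaks. Then 19 regions were in both, 3 in the knockout list alone and 1 in the control list alone. Those 3 (at the Flt3 start, inside Csf1r and upstream of Il6st) and that 1 (inside Kit) were in both full lists. All one-list regions of the full lists fell below that limit, so it did not test why more were in the control list alone. Tek was the gene with no shared region, with 2 regions that were both in the control list alone. Csf3r and Csf2ra were at the other extreme, with 4 and 3 regions that were all shared, though those of Csf3r all lay at other genes. Of the 28 shared regions, 11 lay at other protein-coding genes. Regions in 1 list were weak, with 8 to 31 summit reads, and 3 of the control-only and 1 of the knockout-only regions reached 20 reads.

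**Figure D1:**
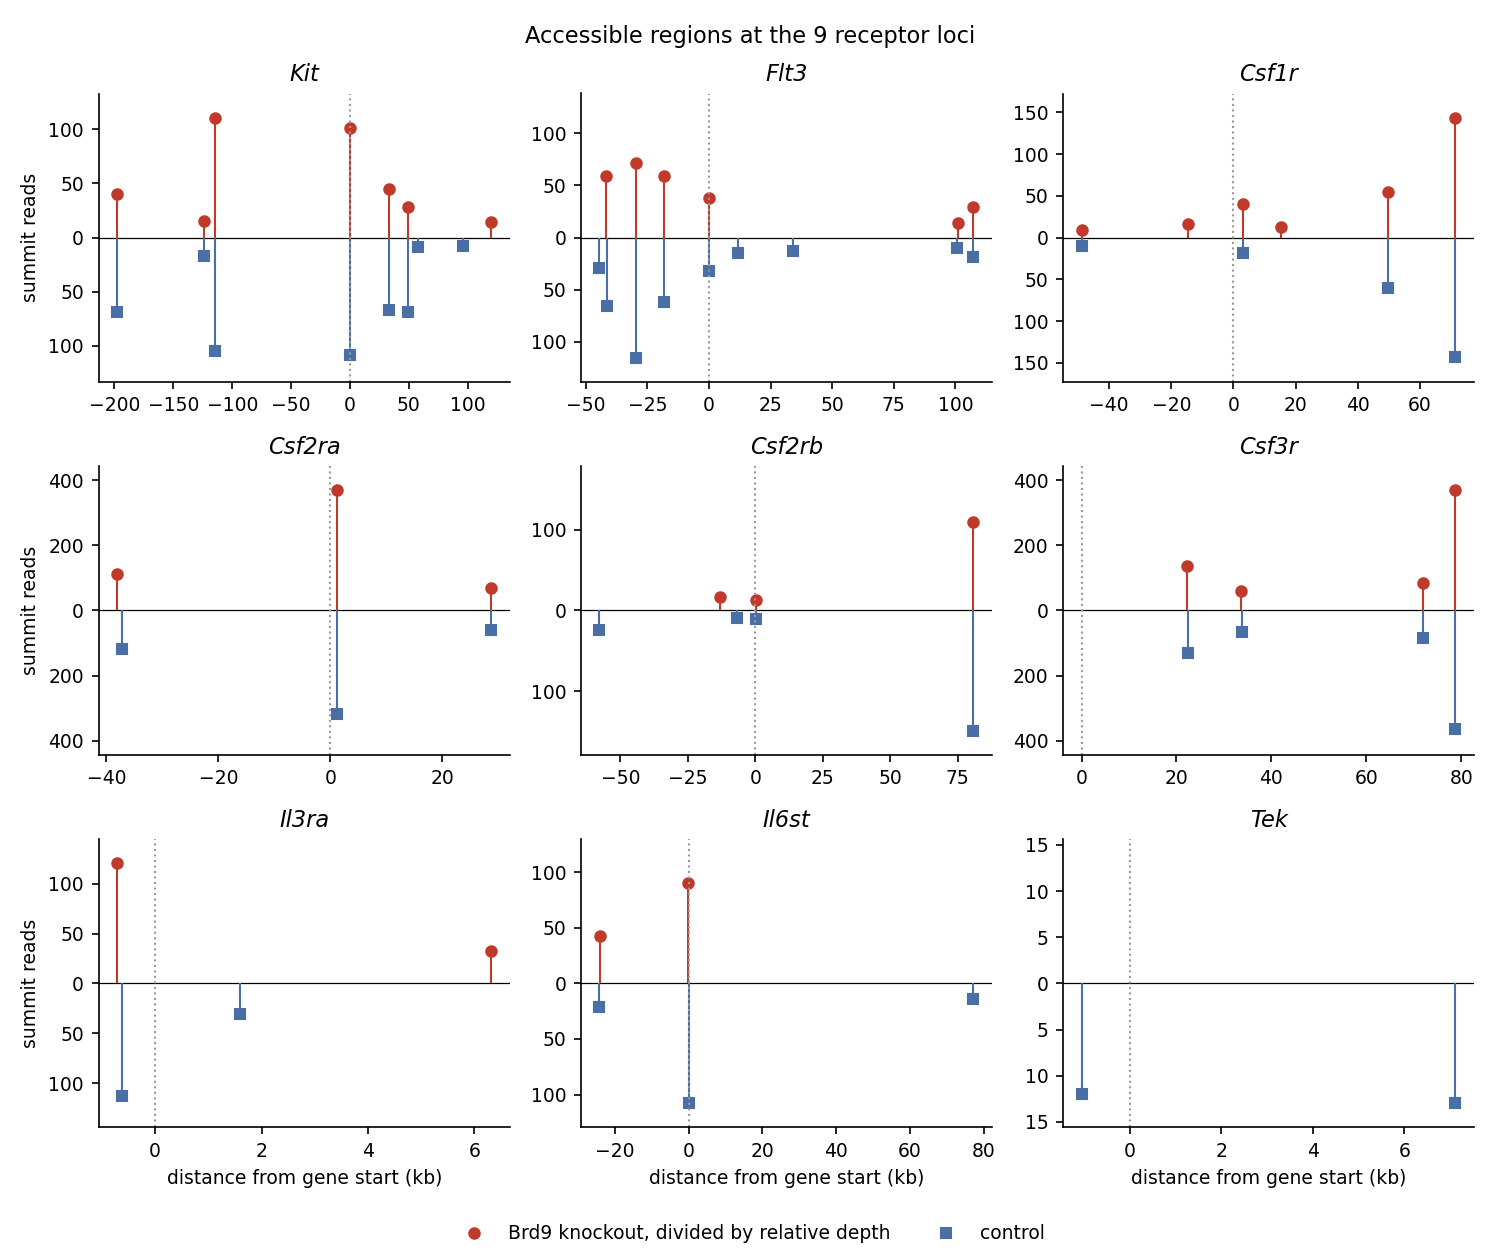
Summit reads of all 44 regions (vertical axis) by distance of the summit from the gene start in kb (horizontal axis; from the low-coordinate gene end for Csf1r and Csf2rb), with knockout reads divided by the relative depth of 0.64 drawn upwards and control reads drawn downwards; each point is 1 region in 1 library. Most stems are mirrored, the Tek panel has control stems only, and the Kit region 49.5 kb into the gene is longer in the control.

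At the gene starts the receptors kept like summit reads in both libraries. A region lay within 1 kb of the start (for Csf2rb and Csf1r, of either gene end) in both lists for 6 of the 9 genes, in the control list alone for Tek, and in neither list for Csf1r and Csf3r. Csf2ra had the most, with 236 reads in the knockout (207 to 268) and 319 in the control (285 to 356), a scaled ratio of 1.16 (0.972 to 1.37). Its region lay inside the gene, with the summit 1.14 kb past the start. Il3ra had 77 reads in the knockout and 113 in the control (1.06, 0.786 to 1.43), and Kit had 65 and 109 (0.931, 0.674 to 1.28). Il6st had 58 reads in the knockout and 108 in the control (0.839, 0.599 to 1.16). These 3 genes followed Csf2ra in both libraries and did not differ from each other beyond counting error, since their intervals within each library overlapped. Flt3 stood below them, with 24 reads in the knockout (15.4 to 35.7) and 32 in the control (21.9 to 45.2), a scaled ratio of 1.17 (0.66 to 2.05). Csf2rb was last, with 8 reads in the knockout (3.45 to 15.8) and 10 in the control (4.8 to 18.4), and its interval met that of Flt3 in the knockout but not in the control. Its ratio was 1.25, with the wide interval of 0.428 to 3.52. All 6 intervals included 1, so no difference between the libraries was detectable at these starts at this depth.

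**Figure D2:**
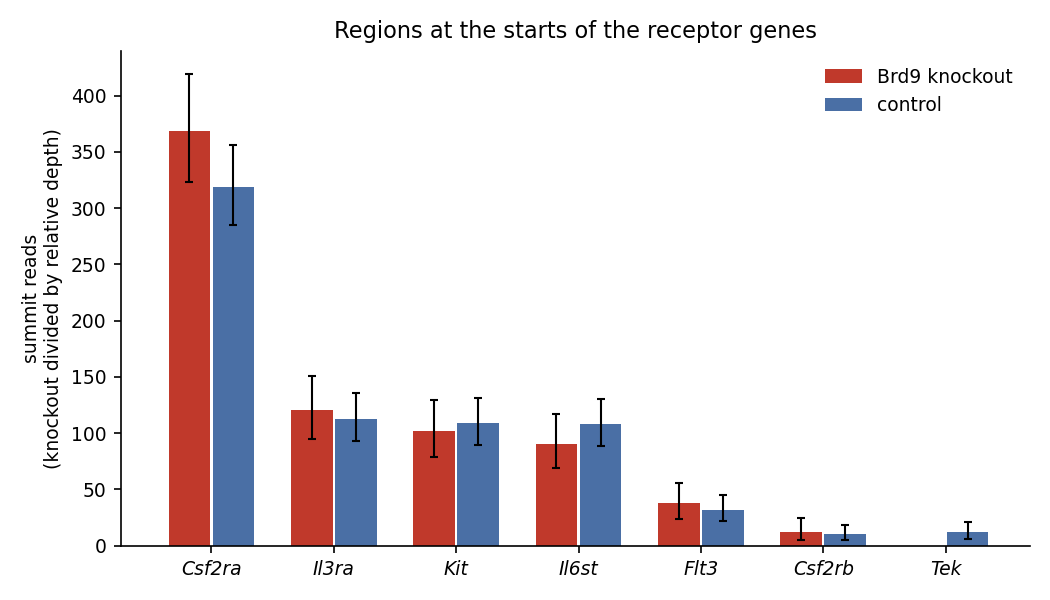
Summit reads of the region at each gene start, or at a gene end for Csf2rb, ordered by height, with knockout bars on the left (divided by the relative depth of 0.64) and control bars on the right; error bars are exact Poisson 95% intervals for counting error in 1 library per genotype. Csf2ra is highest in both libraries, Il3ra, Kit and Il6st are alike, Tek has a control bar alone at 12 reads, and Csf1r and Csf3r had no such region.

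Kit, the receptor that defines the sorted cells, kept its start and its main distant upstream region, while a region in its gene body was lower in the knockout. Kit spans 75574987 to 75656722 on chromosome 5, and its locus held 9 regions. The start region (75574482 to 75576294) was 1813 bp wide. All 3 regions in the 200 kb upstream were in both lists. The strongest, at 75460095 to 75461454 with its summit 114 kb before the start, had 71 summit reads in the knockout and 105 in the control, a scaled ratio of 1.06 (0.77 to 1.44). It was as high as the start region, and its ratio was 1.13 times that at the start (0.721 to 1.78; this comparison does not depend on depth). Regulatory elements far upstream of Kit that bind GATA factors are known in mouse blood cells. A weaker neighbour, 124 kb upstream, had 10 reads in the knockout and 17 in the control (0.919, 0.376 to 2.12). The farthest region, at 75376978 to 75377927 and 197 kb upstream, had 26 reads in the knockout and 69 in the control, a ratio of 0.588 (0.36 to 0.936). Its local background was also lower, 1.55 reads in the knockout against 5.02 in the control. The authors' deposited folds over background were closer, 10.6 in the knockout and 11.6 in the control, a scaled fold ratio of 0.922. A scaled fold ratio is knockout over control fold divided by 0.99, the median ratio of deposited folds, and not by relative depth. Relative to the Kit start the summit read ratio of the farthest region was 0.632 (0.35 to 1.12), an interval that included 1. This region was the member nearest the upstream limit, and the next one out, 215 kb upstream and not a member, had 22 reads in the control and was missing from the knockout list.

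Inside Kit, the region with its summit 49.5 kb past the start (75623849 to 75624840) had 18 summit reads in the knockout (10.7 to 28.4) and 69 in the control (53.7 to 87.3). The count intervals did not overlap even after scaling, and the ratio of 0.407 (0.228 to 0.692) was the lowest of all shared regions at the receptor loci. Relative to the Kit start it was 0.437 (0.225 to 0.825). The local background here was lower too, 1.51 reads in the knockout against 4.87 in the control. The deposited fold was also lower, 7.58 in the knockout and 11.9 in the control, a smaller difference with a scaled fold ratio of 0.642. The other shared gene body region, 33.1 kb past the start (75607729 to 75608488), had 29 and 67 reads in the knockout and the control. Its ratio of 0.676 (0.421 to 1.06) included 1. The gene table used here gives no exons, so both are placed in the gene body only. Of the remaining regions, those with 9 reads inside Kit and 8 reads past its end were in the control list alone, and one 38.0 kb past its end with 9 reads was in the knockout list alone. Such counts were near the lowest that the lists held, 6 reads in the knockout and 7 in the control. Of all control regions within 2 reads of these, 19.9% and 17.0% were also in the knockout list, and of the like knockout regions 42.8% were in the control list.

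Beside the Kit gene body value, the stem and progenitor markers, a list that includes Kit, had summed gene-end reads (a region within 1 kb of either gene end) of 249 in the knockout and 552 in the control over the 6 of 8 genes with a region in both lists, a scaled ratio of 0.704. Tal1 (61 and 214 reads in the knockout and the control; 0.445, 0.329 to 0.594) and Lmo2 (20 and 62; 0.504, 0.288 to 0.846), both transcription regulators of blood stem cells, were the lowest. Runx1 was at 0.768 (0.479 to 1.21), Meis1 at 1.05 (0.709 to 1.54) and Mecom at 1.13 (0.654 to 1.92), while Hlf had 15 reads in the knockout list alone and Gata2 had no gene-end region. The 6 of 9 erythroid markers in both lists had 805 summed reads in the knockout and 1433 in the control, a ratio of 0.877. Of the others, Hbb-bs (50 reads) and Slc4a1 (62 reads) were in the control list alone and Gata1 had no region. Of 6 mast cell and basophil markers, whose cells also carry KIT, Mitf alone had a gene-end region (65 and 87 reads; 1.17, 0.833 to 1.63), and Cpa3, Fcer1a, Ms4a2, Tpsb2 and Mcpt8 had none. The part of the makeup of the sorted cells in the Kit values was not tested, and fewer cells of a type cannot be told apart from less open chromatin per cell in such bulk libraries.

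Flt3, the receptor of early lymphoid and myeloid progenitors, had a modest start region and differences at its neighbour. The gene spans 147330741 to 147400489 on chromosome 5 on the minus strand. Inside the gene, the control list alone had regions 11.9 kb and 33.9 kb past the start, of 15 and 13 reads. Scaled to the depth of the knockout these would be 9.61 and 8.32 reads, and of all control regions with like reads 41.1% and 34.9% were also in the knockout list. Upstream of Flt3 lies Pan3, which encodes a subunit of a poly(A) nuclease. The strongest region of the locus was at Pan3 (147429871 to 147430482), 29.7 kb upstream of the Flt3 start, with 46 reads in the knockout and 115 in the control, a scaled ratio of 0.625 (0.434 to 0.887). Relative to the Flt3 start its ratio was 0.533, with an interval of 0.272 to 1.06 that included 1. Of the other Pan3 regions, one with 38 reads in the knockout and 66 in the control had a ratio of 0.899 (0.587 to 1.36), and a control-only one (147444562 to 147445354) had 29 reads. That control-only region lay on a high local background of 8.1 reads, and 76.5% of control regions with like reads were in both lists. A region 18.1 kb upstream, outside other coding genes, had 38 and 62 reads in the knockout and the control (0.957, 0.622 to 1.46). The 2 regions past the 3' end, one of them at Cdx2, a homeobox gene, had 9 and 19 reads in the knockout against 10 and 19 in the control, and ratios of 1.41 (0.505 to 3.85) and 1.56 (0.782 to 3.12).

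Csf1r, the receptor of monocytes and macrophages, had more reads inside the gene in the knockout. Csf1r spans 61105572 to 61131139 on chromosome 18. The region at 61107851 to 61108991, with its summit 3.08 kb inside the low-coordinate end, had 26 summit reads in the knockout (17.0 to 38.1) and 18 in the control (10.7 to 28.4), before allowing for the lower depth of the knockout. The scaled ratio was 2.26 (1.19 to 4.37), the highest of the shared regions at the receptor loci. The deposited folds were 9.06 in the knockout and 6.23 in the control, a scaled fold ratio of 1.47. Against the strongest region of the locus, at Hmgxb3, with 92 and 143 reads in the knockout and the control (1.0, 0.765 to 1.31), it was 2.25 times as high (1.11 to 4.6). An intronic enhancer called FIRE is known in mouse Csf1r, and whether this region holds it was not examined. Both one-list regions of the locus were in the knockout list, one inside the gene with 8 reads and one 14.4 kb before it with 10 reads. Of knockout regions with like reads, 35.2% and 50.5% were in both lists. The second region at Hmgxb3 had 35 and 60 reads in the knockout and the control (0.911, 0.583 to 1.4), and one inside Pdgfrb, a receptor gene of stromal cells, had 6 and 10 (0.937, 0.28 to 2.85).

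Some markers of myeloid cells also had scaled ratios above 1. Of the 7 granulocyte and monocyte markers, a list that includes Csf1r and Csf3r, 3 had a gene-end region, with summed reads of 122 in the knockout and 129 in the control, a scaled ratio of 1.48. They were Spi1, which encodes PU.1 (38 and 30 reads in the knockout and the control; 1.98, 1.19 to 3.31), Cebpa (55 and 55; 1.56, 1.05 to 2.31) and Mpo (29 and 44; 1.03, 0.621 to 1.68), and Elane and Cebpe had none. These absences depended on the distance used, since all 7 had a shared region within 2.5 kb of a gene end. For Csf3r that region was 1.66 kb past its end and lay at another gene, Mrps15. Of 6 macrophage markers Mertk alone had one, with 21 reads in the knockout and 12 in the control (2.73, 1.28 to 6.09), while Adgre1, C1qa, Marco, Cd5l and Vcam1 had none. The part of myeloid cells in the Csf1r value was not tested.

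Tek, the angiopoietin receptor of endothelial cells and stem cells, had the weakest locus. It spans 94739086 to 94874976 on chromosome 4. One region ended 197 bp before the gene (94738057 to 94738889) and had 12 summit reads in the control (6.2 to 21.0), and one inside it (94746234 to 94746650) had 13 (6.92 to 22.2). Neither was in the knockout list. At the depth of the knockout they would have had 7.68 and 8.32 reads, close to the lowest listed count, and 31.0% and 34.9% of all control regions with like reads were also in the knockout list. A loss of these sites was therefore not detectable at this depth. Of 7 endothelial markers, Flt4 had a gene-end region in both lists (25 reads in the knockout and 51 in the control; 0.766, 0.455 to 1.26), Kdr had one of 17 reads in the knockout list alone, and Pecam1, Cdh5, Tie1, Stab2 and Lyve1 had none.

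The GM-CSF receptor alpha chain had the start region with the most summit reads of the cytokine receptors, with no difference detectable between the libraries. The Csf2ra locus (gene at 61217191 to 61228461 on chromosome 19, minus strand) had 3 shared regions. The one in the gene (61225532 to 61227776) was the widest at the receptor loci, 2245 bp, and lay on high local backgrounds of 30.8 reads in the knockout and 39.6 in the control. By deposited fold over background it was not the highest start region. Its folds were 7.45 in the knockout and 7.88 in the control, against 11.3 and 12.9 at the Il6st start. The flanking regions had 72 and 44 reads in the knockout against 118 and 59 in the control, with ratios of 0.953 (0.701 to 1.29) and 1.16 (0.77 to 1.75). Il3ra, on chromosome 14 (14345912 to 14355493), had its start region plus 2 regions inside the gene that were each in 1 list. The one with 21 reads was in the knockout list alone (14352491 to 14353073) and the one with 31 reads was in the control list alone (14347928 to 14348340). Of regions with like reads, 91.6% of the knockout and 78.9% of the control ones were in both lists, so these were higher than most one-list regions. The deposited folds over background were low, 3.62 for the knockout region and 2.06 for the control region.

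Csf2rb, the beta chain shared by the GM-CSF, IL-3 and IL-5 receptors, had weak regions near the gene (78325800 to 78351001 on chromosome 15). Besides its gene-end region, one 12.9 kb away with 11 reads was in the knockout list alone, and those 6.46 kb and 57.5 kb away, with 9 and 24 reads, were in the control list alone. The last of these (78267660 to 78268253) lay beyond Csf2rb2, the neighbouring gene for a closely related mouse beta chain, which had no region inside it. Reads of similar copies can be placed in either or dropped, and the sources used here do not say how the authors treated them, so counts at both genes are uncertain. The strongest region of the locus lay between Tst and Mpst, which encode mitochondrial and cytosolic sulfurtransferases (78405929 to 78406928). It had 70 reads in the knockout and 149 in the control, a ratio of 0.734 (0.544 to 0.981).

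Csf3r, the G-CSF receptor, had no listed region within the gene (126023441 to 126044975 on chromosome 4) in either library. The nearest, 1.66 kb past its end at Mrps15, a mitochondrial ribosomal protein gene, had 88 reads in the knockout and 130 in the control (1.06, 0.797 to 1.4). The regions at Oscp1 (0.886, 0.579 to 1.34), Lsm10 (1.0, 0.7 to 1.43) and Stk40 (1.01, 0.854 to 1.19) belonged to other genes too. Stk40 had the most reads of the locus, 236 in the knockout and 365 in the control, and was the member nearest the 60 kb limit, at 57.9 kb. The next region outside the limit, 61.8 kb from Csf2rb, was shared, with 46 reads in the knockout and 70 in the control.

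Il6st had one region that was higher in the knockout. The gene spans 112464070 to 112506860 on chromosome 13. The region 24.2 kb upstream of its start (112439483 to 112440331) had 27 summit reads in the knockout (17.8 to 39.3) and 21 in the control (13.0 to 32.1), a scaled ratio of 2.01 (1.09 to 3.74). It lay outside other coding genes. Relative to the Il6st start the ratio was 2.39 (1.18 to 4.86), and the deposited folds were 10.8 in the knockout and 8.74 in the control, a scaled fold ratio of 1.25. A region inside Il31ra, a related cytokine receptor gene, had 14 reads and appeared in the control list only.

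Over the 28 shared regions the libraries did not differ in one direction. The median log2 scaled ratio was -0.03 (SD 0.5), against 0.00 (SD 0.46) over all 18481 shared regions with a ratio, and 14 regions lay below and 14 above 1, where 50.5% of all shared regions lay below. The Kit gene body region was at 0.5 or less, as were 1.99% of all shared regions, and the Csf1r and Il6st regions were at 2 or more, as were 2.39%. The interval lay below 1 at 4 regions, those of Kit at 197 kb upstream and in the gene body, of Pan3 and of Tst and Mpst, and above 1 at 2, those of Csf1r and Il6st. Over all shared regions 8.47% had an interval below 1 and 7.41% above, against 14.3% (exact Clopper-Pearson interval 4.03 to 32.7) and 7.14% (0.877 to 23.5) of the 28, intervals that include the shares over all regions. Against all shared regions of like total reads, in 8 bins, 27 of the 28 lay inside the central 95% of ratios. The exception was the Kit gene body region, at 0.407, where 95% of 2266 regions with 68 to 97 total reads lay between 0.473 and 1.75. By construction only 95% of all shared regions lie inside these ranges, so 27 of 28 inside was about the background share. The Csf1r region at 2.26 lay inside its bin (0.488 to 2.5), and the Il6st region at 2.01 lay just inside its own (0.465 to 2.03). By place, the 5 shared start regions spanned ratios of 0.839 to 1.17, the 3 shared gene body regions 0.407 to 2.26 and the 8 shared intergenic regions 0.588 to 2.01. The summits differed between libraries by a median of 51.5 bp, like the 51.0 bp over all shared regions, and 19 of the 28 regions had the wider peak in the control, against 70.4% of all shared regions.

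**Figure D3:**
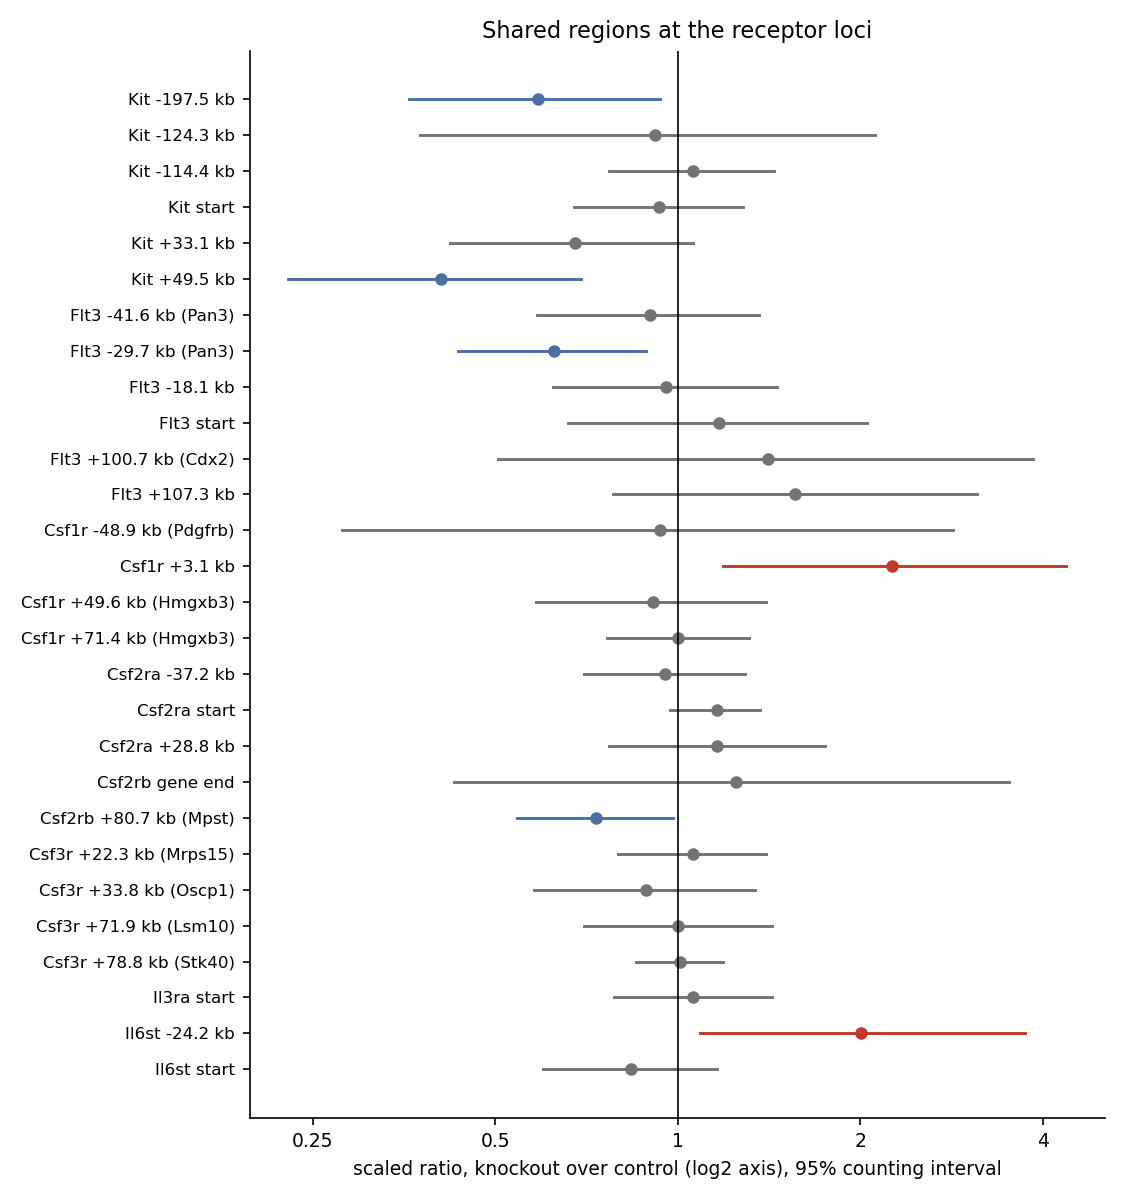
Scaled ratio of knockout over control summit reads (horizontal, log2 axis) for the 28 shared regions, with 95% counting intervals; rows give the locus, the distance of the control summit from the gene start (from the low-coordinate gene end for Csf1r and Csf2rb) and another protein-coding gene at the region in brackets. Red intervals lie above 1 (Csf1r and Il6st), blue ones below 1 (2 of Kit, Pan3 and Mpst), and grey ones include 1.

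**Figure D4:**
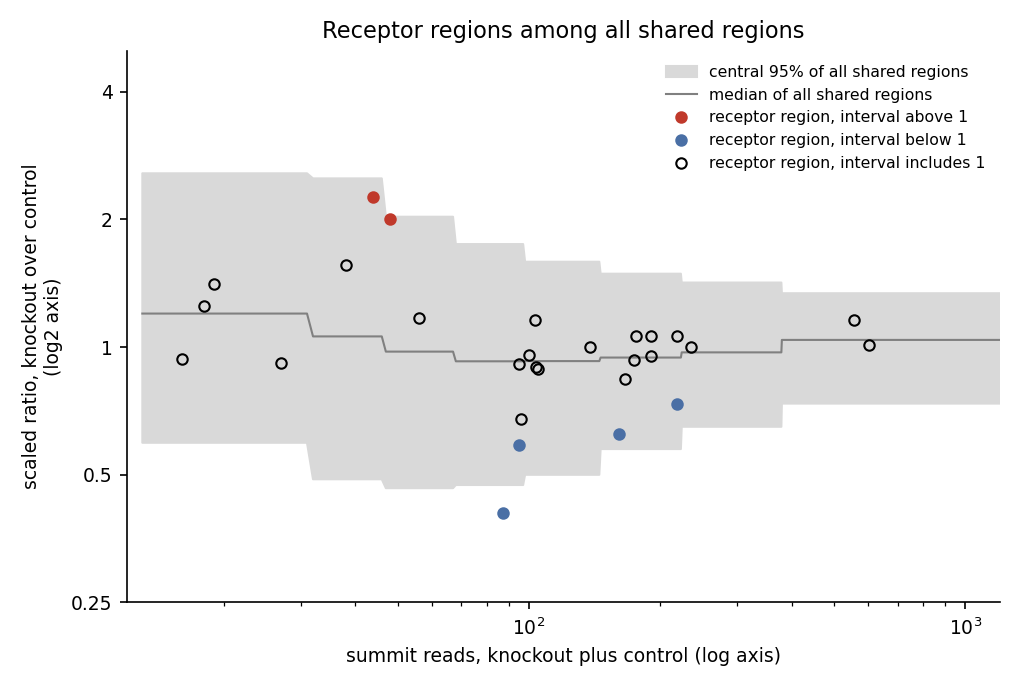
Scaled ratio (vertical, log2 axis) against total summit reads of both libraries (horizontal, log axis) for the 28 shared receptor regions, drawn over the central 95% (grey) and median (line) of all shared regions in 8 bins of reads. The Kit gene body region at 0.407 is the one point outside the grey band.

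Around these receptors, most signal carriers and brakes had a gene-end region in both lists, and most ligands and related receptors did not. Of 64 listed genes for ligands, related receptors, signal carriers and brakes, 38 (59.4%) had one in both lists, 3 (4.69%) in the knockout list alone, 7 (10.9%) in the control list alone and 16 in neither. Of all protein-coding genes, 47.4%, 1.81% and 3.53% had one in both lists, the knockout list alone and the control list alone. Among the shared ones the interval lay below 1 for 2 genes and above 1 for 2, where over all protein-coding genes open at an end in both lists the shares were 7.59% and 9.32%. The median log2 ratio was -0.05, against 0.01 over all such genes.

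In both lists were 18 of 23 signal carriers and 12 of 13 brakes, against 4 of 10 ligands and 4 of 18 related receptors. Among signal carriers, Fes, a myeloid tyrosine kinase, had 71 reads in the knockout and 33 in the control (3.36, 2.19 to 5.24). Stat3, the main factor downstream of gp130, had 403 and 545 reads (1.15, 1.01 to 1.32), and Hras, a RAS protein, had 75 and 172 (0.681, 0.512 to 0.898) in the knockout and the control. Jak2, the kinase bound to the beta chain, had 42 reads in the knockout and 68 in the control (0.965, 0.64 to 1.44), and Stat5a had 90 and 160 (0.878, 0.671 to 1.14). The control list alone held regions at Gab2 (65 reads), an adaptor protein gene, and Jak3 (53 reads). None of the 12 shared brakes had an interval that left out 1, with Cbl, which marks receptor kinases for breakdown, at 1.11 (0.896 to 1.38), Socs1 at 1.19 (0.947 to 1.5) and Spry2 lowest at 0.615 (0.297 to 1.2), and Ptpn6, the phosphatase SHP1, had 17 reads in the control list alone. Of the related receptors, Epor had 197 reads in the knockout and 369 in the control (0.834, 0.698 to 0.994), Il6ra, the IL-6-binding partner of gp130, had 23 reads in the control list alone, and Il5ra 13 in the knockout list alone. Among ligands, Flt3l had 107 reads in the knockout and 155 in the control (1.08, 0.835 to 1.39), Kitl had 12 and 16 (1.17, 0.506 to 2.64), and Csf1 had 31 in the control list alone.

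Markers of other cells were open at some genes and not at others. Of 6 hepatocyte markers Apoa2 (217 reads in the knockout and 281 in the control; 1.21, 1.01 to 1.44) and Foxa3 had one and Alb, Afp, Ttr and Hnf4a had none. Of 5 stromal markers Col1a1 had one in both lists (1.02, 0.542 to 1.89) and Col1a2 one of 12 reads in the control list alone. Of 5 B lymphoid markers the control list alone had one at Ebf1 (33 reads) and at Igll1 (21 reads). Of 5 megakaryocyte markers Gp9, Gp1ba and Pf4 had one in both lists and Itga2b had one in the knockout list alone with 36 reads.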

How the data were processed

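ATAC-seq was measured in 1 knockout and 1 control library. Trimmomatic 0.39, Bowtie2 2.4.4, Picard 2.26.2, deepTools 3.5.1, MACS2 2.2.7.1 and the build mm10 are named, without roles or settings, per the submitters' processing notes. Not given in the sources used here are any shift of reads for the transposase and the treatment of duplicate or multiply mapped reads. The authors called peaks in each library separately, to judge by 1 deposited list per sample. The score that the authors deposited equals the −log10 q-value times 10, decimals dropped, and was not used. The deposited fold is the ratio of summit pileup to local background, each with a pseudocount of 1, and the authors' −log10 p-value rests on the same pair, with an adjusted −log10 q-value beside it. The deposited −log10 q-values began at 1.32 in the knockout and 1.31 in the control. The summit offset in bp is also the authors'.

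Summit reads were recovered as the whole number that gives the deposited fold and −log10 p-value together, with a largest relative misfit of 7.2e-06 in the knockout and 7.3e-06 in the control list. Tested on simulated peaks, 100.0% of 1958 knockout-like and of 1966 control-like peaks were recovered. The simulation used the same formulas as the recovery, so it checked the arithmetic and not whether the deposited values follow those formulas. Relative depth is the ratio of the lowest backgrounds, 0.971 reads in the knockout (3013 peaks) and 1.52 in the control (4000 peaks), which assumes the same read extension in both libraries; total depth is unknown. Ratio intervals are exact conditional binomial and read intervals exact Poisson, at 95%. Intervals cover counting error only and no spread between libraries, since each genotype had 1 library. Reads lacking molecular identifiers need not be separate molecules, so the intervals can be too narrow even for counting error. Regions over 3000 summit reads were left out of ratios over all regions. Genes came from a RefSeq table of GRCm38.p6 with outer gene ends; a gene end or start was matched within 1 kb. The start and strand came from the promoter table. A region with 2 peaks of a list took the higher. Sequences under distal regions were not analysed here. Single values of some listed pathway genes are not reported here.

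The 9 genes, the pathway and marker lists and the tests were chosen with earlier results of these data known. Regions were named by a fixed rule: those at gene starts, the 3 highest of each locus, shared regions whose interval left out 1, one-list regions with at least 20 reads and all regions upstream of Kit; other regions, and single genes of the lists, were chosen after their values were seen. The tools were SciPy 1.17.1 and NumPy 2.4.6 for statistics, pandas 2.3.3 for tables and matplotlib 3.10.9 for figures, under Python 3.11.15. The CpG limits for promoter windows were chosen after their values were seen. Alternatives concerned distances, peak thresholds, the overlap that counts as shared, and the scaling.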

Additional observations from a re-analysis of the deposited data

How the results depend on the processing

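The 4 ratios with an interval below 1 and the 2 above 1 kept that side under both other scalings, the median ratio of all shared regions (0.638) and the summed summit reads (0.641). Both lie so close to the 0.64 used that they could hardly move an interval, so this tested little. By the deposited fold these 4 and 2 regions kept their direction, at 0.642 for the Kit gene body, 0.922 for Kit 197 kb upstream, 0.711 for Pan3, 0.84 for Tst and Mpst, 1.47 for Csf1r and 1.25 for Il6st. Fewer regions by construction gave smaller counts. Within 20 kb, 16 regions were shared, with 2 intervals below 1 and 1 above. Without regions at other protein-coding genes, an alternative chosen after seeing the data, 17 were shared, the median log2 ratio was 0.08 and 2 intervals lay below 1. With a −log10 q-value limit of 5, 3 regions were in the knockout list alone and 7 in the control list alone. With equal numbers of top peaks these were 3 and 1, all of them regions shared in the full lists. In a window of 100 kb upstream of Kit there were 0 regions. The cause of these shifts was not tested beyond the smaller number of regions. Of 70 values under alternatives, 59 were within the limits set for no change. These limits were wide, and the Kit ratio 197 kb upstream, 0.588 by summit reads and 0.922 by deposited fold, counted as unchanged. Many of the 70 were ratios under scalings close to 0.64, so this count does not measure stability. No paired analysis was possible because each genotype had 1 library and the replicate numbers differed. Depth limits what can be said of regions with about 10 reads, which either library can miss.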
